A study of Mus musculus with 5 samples.

Results

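Igfbp2, Igfbp3, Igfbp4, Igfbp5, Igf1r, Insr, Irs1, Irs2, Gpc3 and Gpc4, 10 of the 23951 genes in the expression table, were described across 5 RNA sequencing libraries of mouse pluripotent cells. They were taken by symbol from a list of binding proteins, receptors, adaptors and glypicans that was chosen by their FPKM in these libraries, so every difference below is a description and no test is given. The libraries were 3 of epiblast stem cells derived from embryonic stem cells (EpiSCs), a model of primed pluripotency, and 2 of E14 embryonic stem cells (ESCs), a model of naive pluripotency. All EpiSCs were kept in N2B27 medium with Activin A at 20 ng/ml and FGF2 at 12 ng/ml on serum-coated plates, and were untreated, given 10 ng/ml BMP-4 for 1.5 h, or given 10 ng/ml BMP-4 for 24 h. The ESCs were kept either with LIF and 10 ng/ml BMP-4 in a basal medium, for which the labels name ESGRO Complete and N2B27 as examples, or on gelatin with 1000 U/ml LIF and 15% fetal bovine serum.

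The labels place the EpiSCs under the E14 source and do not say how many EpiSC lines were used. Each group was 1 library, so no difference could be set against a spread between cultures. Cell state goes together with medium, growth factors and plate coating in this design, and BMP-4 in ESCs goes together with the loss of serum, so these cannot be told apart. Fetal serum carries IGFs and their binding proteins, and the N2 and B27 supplements contain insulin, so the supply of ligand from the medium differed between groups as well.

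Insulin-like growth factors act through a receptor tyrosine kinase, the IGF1 receptor, and its close relative the insulin receptor. The activated receptors phosphorylate insulin receptor substrates, which recruit PI3-kinase and so lead to AKT and mTOR. Secreted IGF binding proteins hold the ligands in the medium and can block or prolong their action. Glypicans are heparan sulfate proteoglycans tied to the cell surface by a lipid anchor, and they modulate BMP, Wnt, FGF and Hedgehog signals. Loss of glypican 3 causes overgrowth in people and in mice. The title of the series names BMP signalling in both pluripotent states as its subject.

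Levels are FPKM, fragments per kilobase of transcript, scaled to the number of mapped fragments in the library, a scale per length on which genes can be compared. A range in parentheses after an FPKM value is the confidence interval deposited with it, which is a 95% interval by the definition of Cufflinks, the program named in the submitters' processing notes. A gene is called higher or lower where FPKM + 1 differed at least 2-fold between libraries, among genes averaging 1 FPKM or more across all libraries. All 10 genes were in the table, and 8 reached that mean. Igfbp5 (mean 0.173 FPKM) and Irs1 (mean 0.698 FPKM) did not and are described by their values. Irs2 was under 1 FPKM in both ESC libraries and passed only through its EpiSC values. Insr, at 1.08 and 0.641 FPKM in ESCs with BMP-4 and with serum, also reached that mean only with its EpiSC values. Counts over the 8 genes therefore carry no weight as evidence.

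Where a gene's FPKM values are whole multiples of what 1 read is worth, they can be turned back into reads. This held for 729 of 1077 genes tried (67.7%) and for all 10 genes here, each value of which lay within 0.00461 of a whole number. A ratio of FPKM between libraries is therefore given with its exact (Clopper-Pearson) 95% interval from these reads. That interval covers read counting only, not variation between cultures or library preparations, and it is much narrower than the deposited intervals. The worth of 1 read and annotated transcript lengths gave effective library totals, in units of 1e6 reads, of 8.32 to 13.1, highest in EpiSCs at 24 h and lowest in ESCs with serum. Between 10478 and 10779 genes reached 1 FPKM per library.

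The labelled cell states were checked on marker lists. The summed level of 8 naive markers was 4.65 to 6.68 FPKM in the EpiSC libraries and 1559 to 1793 FPKM in the ESC libraries. For 8 primed markers it was 465 to 762 FPKM in EpiSCs and 65.6 to 66.2 FPKM in ESCs. Most of that sum was Dnmt3b, at 288 to 403 FPKM in EpiSCs. Every primed marker but Fgf8 was lower at 24 h than in untreated EpiSCs. In untreated and 24 h EpiSCs, Cer1 stood at 35.0 and 1.31 FPKM, Lefty1 at 69.9 and 8.42 FPKM. Otx2 stood at 30.1 and 8.21 FPKM there, and Fgf8 at 61.2 and 82.0 FPKM. Sox3 at 24 h lay just below its value in ESCs with BMP-4. Of 8 fibroblast markers 1, Thy1, averaged 1 FPKM or more, and Dcn was listed at 0 in every library. Col1a1, Col1a2, Col3a1 and Lum, all under 1 FPKM, had every EpiSC value above both ESC values. Col3a1, for instance, stood at 0.473 to 0.825 FPKM in EpiSCs and was listed at 0 in ESCs. Pdgfrb went the other way, at 0.113 to 0.398 FPKM in EpiSCs and 0.437 to 0.438 FPKM in ESCs. Of 8 markers of primitive and extraembryonic endoderm 4 reached that mean, with a summed level of 8.05 to 9.88 FPKM in EpiSCs and 15.5 to 16.9 FPKM in ESCs. The higher sum in ESCs was mostly Lama1, at 0.349 to 0.454 FPKM in EpiSCs and 14.0 to 15.3 FPKM in ESCs. Gata4, Gata6, Sox17, Pdgfra and Dab2 had every EpiSC value above both ESC values, for instance 1.87 to 3.72 FPKM in EpiSCs and 0 to 0.0705 FPKM in ESCs for Sox17. Sox7, like Lama1, was lower in EpiSCs, at 0 to 0.0275 FPKM, against 0.473 to 0.532 FPKM in ESCs. Of 6 neural markers 4 averaged 1 FPKM or more, with a summed level of 20.1 to 28.5 FPKM in EpiSCs and 45.3 to 76.2 FPKM in ESCs. Most of that sum was Tubb3, at 16.7 to 24.8 FPKM in EpiSCs and 35.3 to 71.9 FPKM in ESCs. Sox1 and Pax6 were also higher in ESCs, with Pax6 at 6.40 FPKM with BMP-4 and 0.922 FPKM with serum. Map2 went the other way, at 2.81 to 3.42 FPKM in EpiSCs and 0.954 to 1.16 FPKM in ESCs. BMP-4 had acted in the treated EpiSCs, since Id1, a direct target of BMP signalling, stood at 14.1, 184 and 199 FPKM in untreated, 1.5 h and 24 h EpiSCs. In ESCs Id1 stood at 101 FPKM (41.6 to 161) with BMP-4 and at 70.1 FPKM (25.8 to 114) with serum. These ranges, the deposited confidence intervals, overlapped.

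The sequences shown first are promoters of the glypican genes and of the adaptor genes. The glypican genes lie next to each other, yet their values moved differently between the ESC media and at 24 h of BMP-4. At 24 h both lay within 2-fold of untreated EpiSCs, with overlapping deposited intervals. For the adaptor genes every EpiSC value lay above both ESC values, again with overlapping deposited intervals. Each run is the 250 bases before the RefSeq start on build GRCm38.p6, on the gene's own strand. Capitals mark GGGCGG, the core of the GC box bound by Sp1-type factors, and CACGTG, the palindromic E-box, both searched on both strands. GGGCGG reads CCGCCC on the other strand.
Gpc3 (chrX:52613975-52614224, minus strand): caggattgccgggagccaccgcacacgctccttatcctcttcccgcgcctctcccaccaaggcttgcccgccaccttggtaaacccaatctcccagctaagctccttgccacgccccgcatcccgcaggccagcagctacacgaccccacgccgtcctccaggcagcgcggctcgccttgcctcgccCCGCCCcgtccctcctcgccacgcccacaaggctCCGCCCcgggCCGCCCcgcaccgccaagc
Gpc4 (chrX:52164924-52165173, minus strand): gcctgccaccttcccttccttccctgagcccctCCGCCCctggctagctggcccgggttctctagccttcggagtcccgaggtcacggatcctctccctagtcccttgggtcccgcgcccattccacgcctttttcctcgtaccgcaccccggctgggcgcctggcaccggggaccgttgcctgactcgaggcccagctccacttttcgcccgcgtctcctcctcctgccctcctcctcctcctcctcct
Irs1 (chr1:82291440-82291689, minus strand): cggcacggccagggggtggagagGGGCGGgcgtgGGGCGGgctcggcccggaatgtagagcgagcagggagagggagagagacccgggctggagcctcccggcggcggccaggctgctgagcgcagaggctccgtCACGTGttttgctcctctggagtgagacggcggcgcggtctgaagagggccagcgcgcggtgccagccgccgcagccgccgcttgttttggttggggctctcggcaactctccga
Irs2 (chr8:11008930-11009179, minus strand): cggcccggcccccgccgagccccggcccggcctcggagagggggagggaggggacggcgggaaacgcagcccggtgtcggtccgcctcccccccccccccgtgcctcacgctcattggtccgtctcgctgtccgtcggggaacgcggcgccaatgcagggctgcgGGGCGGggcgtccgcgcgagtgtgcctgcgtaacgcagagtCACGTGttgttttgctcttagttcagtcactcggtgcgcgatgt

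The promoter table held an entry for 9 of the 10 genes, all but Insr. Igfbp2 had 2 starts, and the window of 1 of them held neither GGGCGG nor CACGTG. A gene was counted if any of its windows held the letters, while the shares of all promoters count each window. GGGCGG occurred in the promoters of 6 of these 9 genes and in 32.7% of the 32851 promoters in the table. CACGTG occurred in 3 of the 9, Igfbp2, Irs1 and Irs2, and in 6.02% of all promoters. GTAAACA, the core bound by FOXO factors, which act downstream of insulin and AKT, occurred in none of the 9 and in 3.17% of all promoters. GGCGCC, a GC-rich element bound by BMP-activated Smads, occurred in 2, Irs2 and Gpc4, and in 9.59% of all, and TATAAA in 1, Igfbp4, and in 12.4% of all. The 4 promoters printed had 71.6% (Gpc3), 68.4% (Gpc4), 72.4% (Irs1) and 72.8% (Irs2) G or C, against a median of 52.4% over the table. These matches describe the letters in these windows and show no binding.

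The binding proteins are given first. Igfbp2, a binding protein with a preference for IGF2 (mm9 chromosome 1, 72871054 to 72899045), was the most abundant gene of the group in every library. It stood at 216 FPKM (115 to 318) in untreated EpiSCs, 207 (110 to 304) at 1.5 h, 148 (73.5 to 222) at 24 h, 214 (113 to 314) in ESCs with BMP-4 and 70.9 (29.9 to 112) in ESCs with serum. The library of ESCs with serum was low and the other 4 were high, so the values of EpiSCs and ESCs overlapped. Untreated EpiSCs and ESCs with BMP-4 stood next to each other, with a ratio of 1.01 (0.957 to 1.07). By rank among all genes Igfbp2 was number 422 in untreated EpiSCs, 453 in ESCs with BMP-4 and 1417 in ESCs with serum.

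Igfbp3, which carries most IGF in blood (chromosome 11, 7106096 to 7113926), separated the cell states. It stood at 38.9 FPKM (17.0 to 60.9), 33.6 (14.1 to 53.1) and 63.1 (30.5 to 95.7) in untreated, 1.5 h and 24 h EpiSCs, and at 1.57 (0 to 3.78) in ESCs with BMP-4 and 2.53 (0 to 5.35) in ESCs with serum. The lowest EpiSC value lay above the highest ESC value by a wide margin, and the EpiSC intervals lay apart from both ESC intervals. In reads, the values were 925, 892 and 2039 in EpiSCs and 34 and 52 in ESCs. In bulk RNA, more cells that express a gene and more RNA per cell cannot be told apart.

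Among the marker lists, the summed level of 6 trophoblast markers moved with Igfbp3. It stood at 113, 102 and 155 FPKM in untreated, 1.5 h and 24 h EpiSCs, against 23.0 FPKM in ESCs with BMP-4 and 35.7 FPKM in ESCs with serum. Of the list, 4 of 6 genes averaged 1 FPKM or more, and Krt8 and Eomes made up most of the sum. Cdx2 stood at 1.55, 1.48 and 13.7 FPKM in untreated, 1.5 h and 24 h EpiSCs, against 0.160 and 0.0560 FPKM in ESCs with BMP-4 and with serum. Tfap2c stood at 6.10, 6.11 and 12.7 FPKM in these EpiSCs, against 10.2 and 6.47 FPKM in the ESCs. Both were highest at 24 h, as Igfbp3 was. Elf5 was listed at 0 in 4 libraries and at 0.0361 FPKM at 24 h, and Hand1 stood at or under 0.306 FPKM. The 5 endoderm genes named above, Gata4, Gata6, Sox17, Pdgfra and Dab2, also had their EpiSC values above both ESC values. Lama1 and Sox7 of the same list went the other way, and the sum of that list was lower in EpiSCs. Of the fibroblast list, Col1a1, Col1a2, Col3a1 and Lum, all under 1 FPKM, also had EpiSC values above both ESC values, with the highest at 24 h. Pdgfrb of that list went the other way, and Thy1 was highest in untreated EpiSCs. The part of trophoblast, endoderm or fibroblast cells in the Igfbp3 values was not tested.

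Igfbp4, which inhibits IGF action until it is cleaved by the protease PAPP-A (chromosome 11, 98902574 to 98913957), stood at 6.57, 7.11 and 6.03 FPKM in untreated, 1.5 h and 24 h EpiSCs, and at 2.39 and 1.81 FPKM in ESCs with BMP-4 and with serum. The EpiSC values lay above the ESC values, while the deposited intervals overlapped, for instance 0.773 to 12.4 in untreated EpiSCs and 0 to 4.37 in ESCs with serum. Igfbp5, a binding protein of bone and muscle, was near the limit of detection. It stood at 0.299, 0.253 and 0.257 FPKM in EpiSCs and at 0.0366 and 0.0192 FPKM in ESCs with BMP-4 and with serum, which were 18, 17 and 21 reads against 2 and 1. Its neighbour Igfbp2 lies 5.59 kb away on chromosome 1, so the lowest and the highest of the 10 genes lay side by side.

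Summed over the 4 binding proteins, the level was 262, 248 and 217 FPKM in untreated, 1.5 h and 24 h EpiSCs, 218 FPKM in ESCs with BMP-4 and 75.3 FPKM in ESCs with serum. The total was alike in 4 libraries but its makeup was not. Igfbp3 made up 14.8%, 13.6% and 29.1% of the sum in the EpiSC libraries, 0.724% in ESCs with BMP-4 and 3.36% in ESCs with serum. Igfbp2 made up 98.2% in ESCs with BMP-4 and 94.2% in ESCs with serum, and 68.0% in EpiSCs at 24 h, its lowest share.

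**Figure D1:**
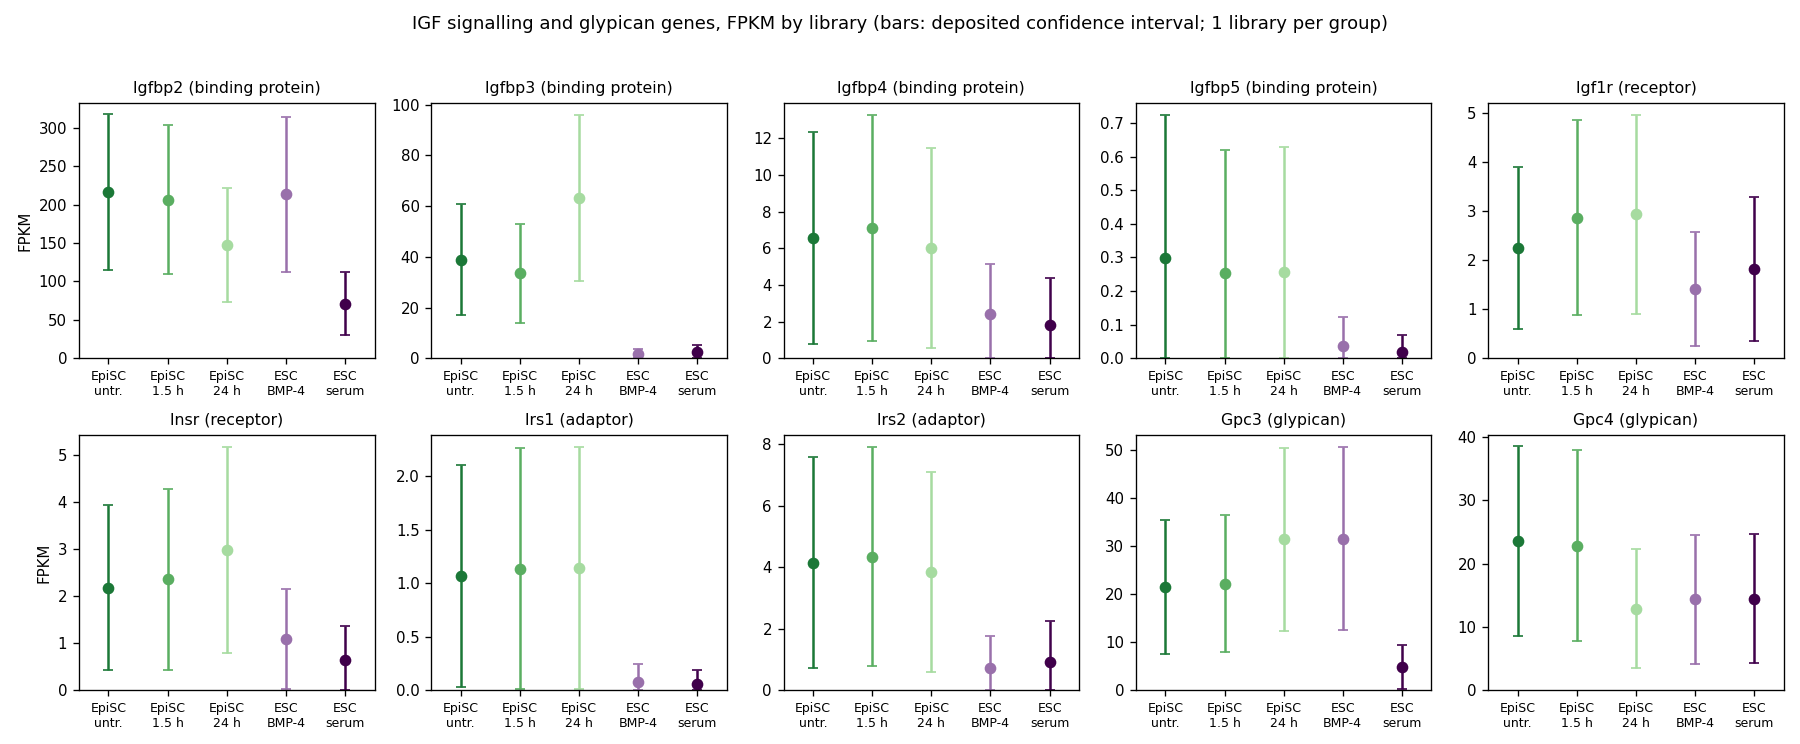
FPKM of the 10 genes (vertical axes, linear, from 0) in the 5 libraries (horizontal axes), with points for the deposited values and bars for the deposited confidence intervals. Igfbp3, Igfbp4, Irs1 and Irs2 are higher in the 3 EpiSC libraries, while Igfbp2 and Gpc3 are low only in ESCs with serum, at 70.9 and 4.90 FPKM.

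The receptors stood at low levels. Igf1r, the main receptor for IGF1 and IGF2 (chromosome 7, 75097143 to 75378553), stood at 2.25, 2.87 and 2.94 FPKM in untreated, 1.5 h and 24 h EpiSCs, against 1.42 FPKM in ESCs with BMP-4 and 1.82 FPKM in ESCs with serum. Insr, the insulin receptor (chromosome 8, 3150922 to 3279617), stood at 2.19, 2.36 and 2.98 FPKM in EpiSCs, against 1.08 and 0.641 FPKM in ESCs with BMP-4 and with serum. For each receptor all EpiSC values lay above both ESC values, and the deposited intervals overlapped. The receptors were close to equal in untreated EpiSCs, with a ratio of Igf1r to Insr of 1.03, and that ratio was 1.31 in ESCs with BMP-4 and 2.84 in ESCs with serum.

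Igf2r, the scavenger receptor that removes IGF2 and does not signal through IRS proteins, was from the list of other receptors and stood at 10.4, 11.8 and 13.6 FPKM in EpiSCs, and at 6.98 and 7.15 FPKM in ESCs with BMP-4 and with serum. It was thus above both signalling receptors in every library.

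The adaptors differed more than the receptors did. Irs2 (chromosome 8, 10986964 to 11054541) stood at 4.15 FPKM (0.711 to 7.59), 4.33 (0.775 to 7.89) and 3.85 (0.598 to 7.10) in untreated, 1.5 h and 24 h EpiSCs, and at 0.734 (0 to 1.76) and 0.913 (0 to 2.24) in ESCs with BMP-4 and with serum. Irs1 (chromosome 1, 82229680 to 82288014) stood at 1.07, 1.14 and 1.14 FPKM in EpiSCs and at 0.0808 and 0.0606 FPKM in ESCs with BMP-4 and with serum. The Irs1 values rested on 102, 121 and 148 reads in EpiSCs and on 7 and 5 reads in ESCs. Both adaptors were level across the EpiSC libraries and low in both ESC media, with deposited intervals that overlapped between the cell types. Irs2 was the more abundant adaptor throughout, 3.88-fold above Irs1 in untreated EpiSCs and 15.1-fold in ESCs with serum. The ratio in ESCs with serum rested on 32 reads of Irs2 and 5 of Irs1. Ratios between genes also depend on the transcript lengths used, and no interval is given for them.

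The glypicans lie on the X chromosome, Gpc4 at 49406195 to 49518100 and Gpc3 at 49625604 to 49972224, with 108 kb between them. Gpc3 stood at 21.5 FPKM (7.52 to 35.5), 22.2 (7.86 to 36.6) and 31.5 (12.4 to 50.5) in untreated, 1.5 h and 24 h EpiSCs, at 31.5 (12.5 to 50.6) in ESCs with BMP-4 and at 4.90 (0.355 to 9.45) in ESCs with serum. Gpc4, expressed in the early embryo and in neural precursors, stood at 23.6 (8.63 to 38.5), 22.8 (7.71 to 37.9) and 12.9 FPKM (3.43 to 22.4) in the EpiSC libraries, at 14.4 (4.18 to 24.5) in ESCs with BMP-4 and at 14.5 (4.23 to 24.7) in ESCs with serum. Gpc3 was low in ESCs with serum and high in the other 4 libraries, as Igfbp2 was. Gpc4 was high in untreated and 1.5 h EpiSCs and lower in the other 3 libraries, where it hardly varied.

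The ratio of Gpc3 to Gpc4 was 0.914, 0.974 and 2.44 in untreated, 1.5 h and 24 h EpiSCs, 2.20 in ESCs with BMP-4 and 0.339 in ESCs with serum. Their sum was 45.1, 45.0 and 44.4 FPKM in the EpiSC libraries, 45.9 FPKM in ESCs with BMP-4 and 19.4 FPKM in ESCs with serum. The glypican that made up most of the sum thus differed between libraries with a like total.

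**Figure D2:**
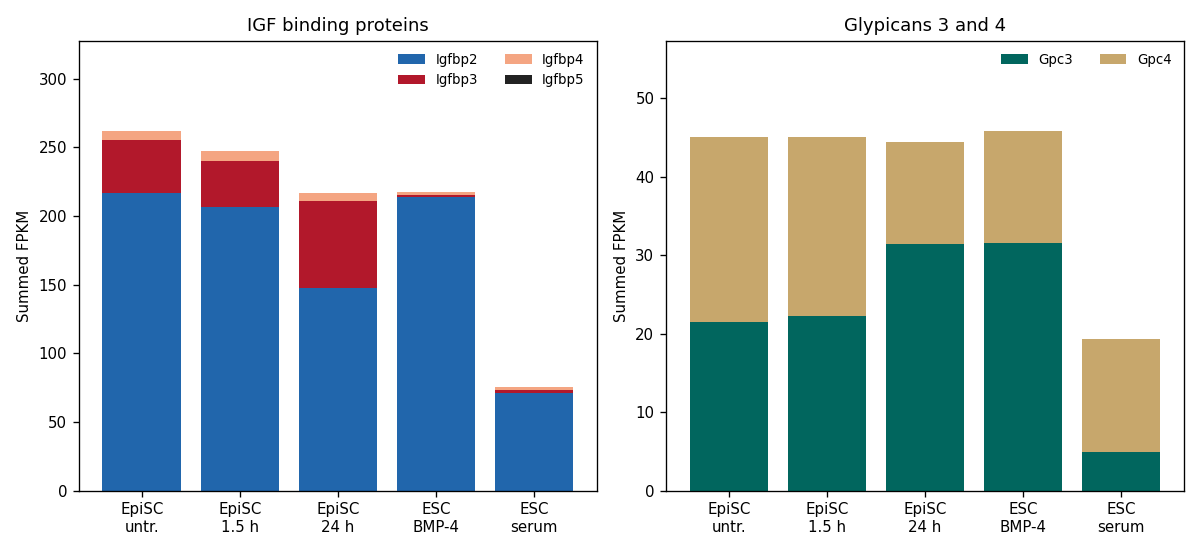
Summed FPKM (vertical axes, linear, from 0) of the 4 binding proteins (left) and the 2 glypicans (right) in the 5 libraries, stacked by gene. The sums are alike in 4 libraries and low in ESCs with serum (75.3 and 19.4 FPKM), with a larger Igfbp3 part in EpiSCs and a changing balance of Gpc3 and Gpc4.

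Untreated EpiSCs were first set against ESCs grown in LIF with serum, to ask how the primed and the naive state differ. Igfbp2, Igfbp3, Igfbp4, Irs2 and Gpc3 were higher in EpiSCs, and none of the 10 genes was lower. This made 5 of the 8 genes compared, where 11.6% of all 11007 genes compared were higher, 9.55% lower and 21.1% different in either direction. The choice of these genes used such differences, so nothing is read from that count. The median log2 difference was 1.43 over the 8 genes and -0.01 over all genes. Igfbp3 had the largest log2 difference, 3.50, with a ratio of FPKM of 15.4 (11.6 to 20.8).

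For the other called genes the ratio was 4.54 (3.10 to 6.86) for Irs2, 4.39 (3.51 to 5.55) for Gpc3, 3.63 (2.44 to 5.56) for Igfbp4 and 3.05 (2.81 to 3.32) for Igfbp2. The deposited intervals were apart for Igfbp2 and Igfbp3 and overlapped for the other 3, and 5.52% of all genes were 2-fold apart with intervals apart. Insr fell just short of the 2-fold limit, at 1.94-fold on FPKM + 1, with a ratio of FPKM of 3.41 (2.52 to 4.69). Irs1, too low to be compared, had a ratio of 17.7 (7.32 to 55.5), and Igfbp5, with 18 reads against 1, had 15.6 (2.46 to 649). Gpc4 and Igf1r lay closest together, with ratios of 1.63 (1.41 to 1.89) and 1.24 (1.03 to 1.49).

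ESCs in LIF and BMP-4 gave the second view of cell state. Igfbp3, Igfbp4 and Irs2 were higher in EpiSCs, 3 of the 8 genes, where 11.0% of all genes were higher, 10.0% lower and 21.0% different in either direction. Igfbp2 and Gpc3, higher against ESCs with serum, were not higher here. Their ratios were 1.01 for Igfbp2 and 0.683 (0.605 to 0.771) for Gpc3. Igfbp3 had a ratio of 24.7 (17.6 to 35.9), with deposited intervals apart, and Irs2 had 5.66 (3.75 to 8.84) and Igfbp4 2.75 (1.93 to 3.98), with intervals that overlapped, beside 5.50% of all genes that were 2-fold apart with intervals apart. Both comparisons use the same library of untreated EpiSCs.

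Across all 5 libraries, every EpiSC value of Igfbp3, Igfbp4 and Irs2 was 2-fold or more above both ESC values, 3 of 8 genes beside 7.21% of all genes. Without the 2-fold limit, Igf1r and Insr joined them, 5 of 8 genes beside 34.9% of all genes. Igfbp5 and Irs1, outside the count, also had all EpiSC values above both ESC values. Igfbp2, Gpc3 and Gpc4 had values that overlapped between the cell types, and no gene of the 10 had both ESC values above all EpiSC values, beside 35.7% of all genes at any size and 6.62% at 2-fold.

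The ESC cultures, with BMP-4 or with serum beside LIF, were then set against each other. Gpc3 and Igfbp2 were higher with BMP-4 and no gene was lower, 2 of 8 genes beside 2.61% of all 11010 genes higher, 1.28% lower and 3.89% different in either direction. Gpc3 had 628 reads with BMP-4 and 93 with serum, a ratio of FPKM of 6.43 (5.17 to 8.08). Igfbp2 had 2311 and 731 reads, a ratio of 3.01 (2.77 to 3.28). The deposited intervals were apart for both genes, beside 0.200% of all genes compared that were 2-fold apart with intervals apart. The median log2 difference was 0.13 over the 8 genes and -0.02 over all genes.

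The other genes lay within 2-fold between the ESC media. Gpc4, the neighbour of Gpc3, had a ratio of 0.993 (0.840 to 1.17). Insr was 1.69 (1.20 to 2.41), Igfbp4 1.32 (0.813 to 2.17), Igf1r 0.783 (0.632 to 0.969), Irs2 0.804 (0.463 to 1.38) and Igfbp3 0.623 (0.392 to 0.978). For Insr, Igf1r and Igfbp3 the interval from read counting did not include 1, while the deposited intervals overlapped widely. Irs1 and Igfbp5 had too few reads in ESCs for a direction, with 7 against 5 and 2 against 1.

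**Figure D3:**
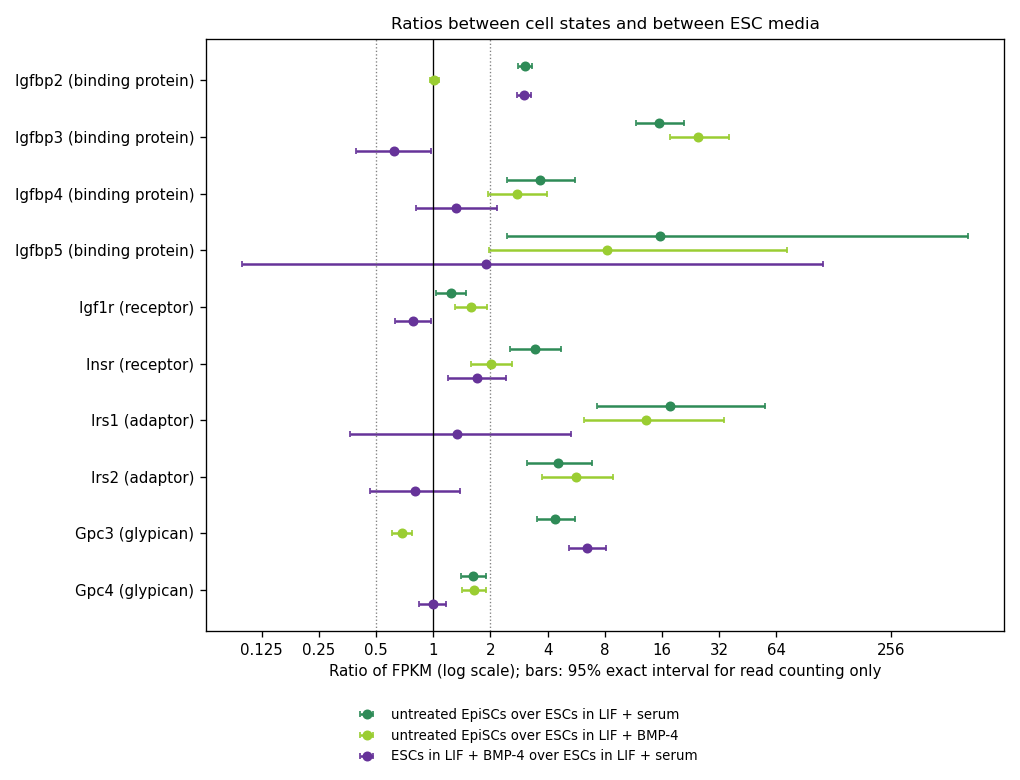
Ratio of FPKM (horizontal axis, log scale) for the 10 genes between untreated EpiSCs and each ESC library and between the ESC libraries, with 95% exact intervals for read counting alone. Dotted lines mark 2-fold. Igfbp3, Igfbp5, Irs1 and Irs2 lie far right in both EpiSC ratios, whereas Gpc3 and Igfbp2 lie right of 1 for BMP-4 over serum in ESCs, at 6.43 and 3.01. In ESCs with BMP-4 and with serum, Igfbp5 rests on 2 and 1 reads and Irs1 on 7 and 5.

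EpiSCs after 1.5 h of BMP-4 were compared with untreated EpiSCs to look for an early response. None of the 8 genes was higher or lower, beside 0.418% of all genes that differed in either direction. The ratios of the 10 genes ran from 0.845 for Igfbp5 to 1.28 for Igf1r. For Igfbp2, Igfbp4, Insr, Irs1, Irs2, Gpc3, Gpc4 and Igfbp5 the interval from read counting included 1. It did not for Igf1r (1.09 to 1.49) and for Igfbp3, at 0.863 (0.786 to 0.947). Both had overlapping deposited intervals.

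After 24 h of BMP-4 none of the 8 genes was 2-fold apart from untreated EpiSCs, beside 1.18% of all genes. Smaller differences lay in opposite directions within both families. Igfbp3 was at 2039 reads at 24 h and 925 in untreated EpiSCs, a ratio of FPKM of 1.62 (1.50 to 1.75), whereas Igfbp2 had a ratio of 0.682 (0.645 to 0.721). Gpc3 had a ratio of 1.46 (1.31 to 1.64), and Gpc4, with 395 and 531 reads, 0.547 (0.479 to 0.624). For all 4 genes the interval from read counting excluded 1, while the deposited intervals overlapped between these libraries. Overlap of intervals does not test a difference, and with 1 library per group no error of these differences could be estimated.

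The receptors had ratios of 1.36 (1.15 to 1.62) for Insr and 1.31 (1.13 to 1.52) for Igf1r at 24 h. Irs1, Irs2, Igfbp4 and Igfbp5 had ratios from 0.858 to 1.07, each with an interval that included 1. Between 24 h and 1.5 h of BMP-4 none of the 8 genes was 2-fold apart, beside 1.04% of all genes. Here Igfbp3 had a ratio of 1.88 (1.74 to 2.03), Gpc3 1.42 (1.27 to 1.58), Igfbp2 0.714 (0.675 to 0.754) and Gpc4 0.566 (0.496 to 0.644). The comparisons at 24 h share a library, so their like values are not independent.

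BMP-4 in ESCs and BMP-4 in EpiSCs gave Gpc3 and Igfbp2 these values side by side. Gpc3 had a ratio of 6.43 for ESCs with BMP-4 over ESCs with serum and of 1.46 for EpiSCs at 24 h over untreated EpiSCs. Igfbp2 had 3.01 in ESCs and 0.682 in EpiSCs. The BMP target Id1 stood at 101 FPKM in ESCs with BMP-4 and 70.1 FPKM in ESCs with serum. In EpiSCs it stood at 199 FPKM at 24 h and 14.1 FPKM without BMP-4. The ESC comparison also replaced serum, and the length of BMP-4 treatment in ESCs is not given in the labels, so the ratios do not measure the same change and their difference was not tested.

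**Figure D4:**
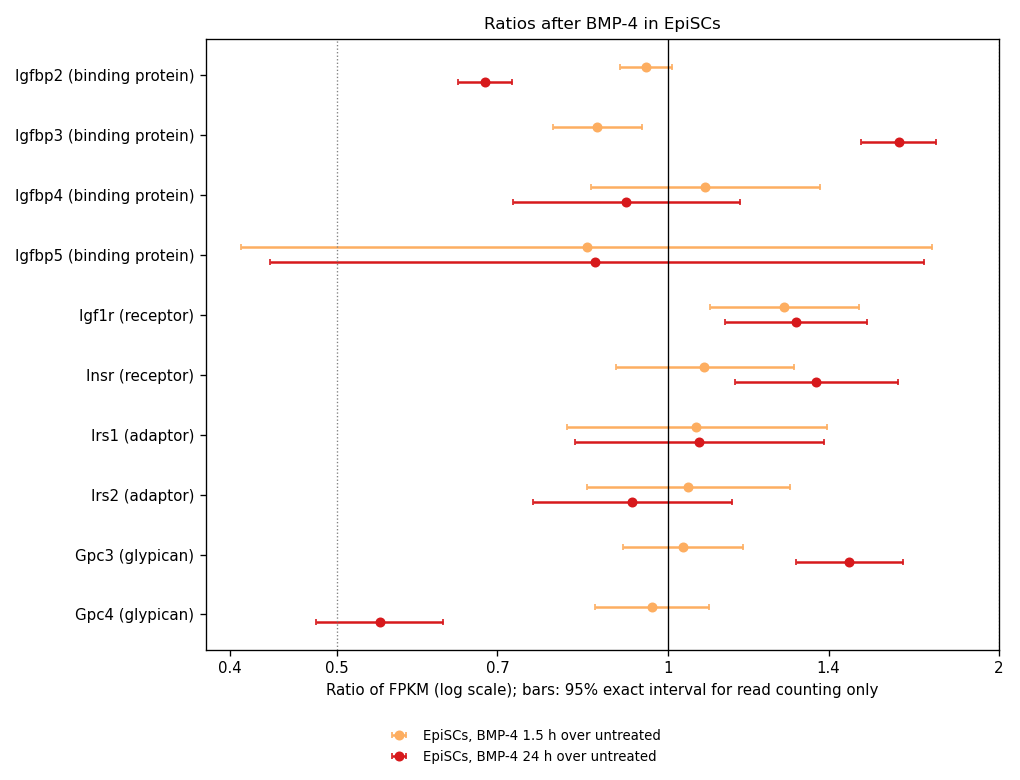
Ratio of FPKM (horizontal axis, log scale) for the 10 genes in EpiSCs after 1.5 h or 24 h of BMP-4 over untreated EpiSCs, with 95% exact intervals for read counting alone. Dotted lines mark 2-fold. At 24 h Igfbp3 and Gpc3 lie right of 1, at 1.62 and 1.46, and Igfbp2 and Gpc4 left of it, at 0.682 and 0.547.

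The other genes of the pathway were described from 9 lists of 89 genes, of which 64 averaged 1 FPKM or more. Some reached that mean through 1 cell type only, such as Igf2, Sdc3 and Hs6st2 through EpiSCs. Igfbpl1, Htra1 and Notum reached it through ESCs, so counts over these lists carry no weight as evidence either. Between untreated EpiSCs and ESCs with serum, 11 of the 64 were higher and 4 lower, beside 11.6% of all genes higher and 9.55% lower. The median log2 difference was 0.21 over the 64 and -0.01 over all genes. Against ESCs with BMP-4, 14 were higher and 6 lower, beside 11.0% of all genes higher and 10.0% lower (median 0.28, against 0.00 over all genes). Between the ESC media 1 was higher and 1 lower, beside 2.61% and 1.28% of all genes (median -0.02). After 1.5 h and after 24 h of BMP-4 in EpiSCs 0 were higher or lower, beside 0.418% and 1.18% of all genes, with medians of 0.02 and 0.05. Between 24 h and 1.5 h 1 gene of the lists was higher, Igf2, and 0 were lower, beside 1.04% of all genes in either direction.

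Of the ligands, Igf2 alone was detected. It stood at 4.20 FPKM (0.351 to 8.05), 3.64 (0.431 to 6.86) and 9.02 (2.60 to 15.5) in untreated, 1.5 h and 24 h EpiSCs, against 0.148 (0 to 0.408) in ESCs with BMP-4 and 1.12 (0 to 2.77) in ESCs with serum. The EpiSC values lay above the ESC values, with the highest at 24 h, and the deposited intervals overlapped in every comparison but those with ESCs in BMP-4 of the 1.5 h and 24 h libraries. Igf1, Ins1 and Ins2 were listed at 0 in all 5 libraries. Igf2 is imprinted.

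The remaining binding proteins were low. Igfbp1, which lies 3.55 kb from Igfbp3, was listed at 0 in every library, and Igfbp6 and Igfbp7 had means under 1 FPKM. Igfbpl1, a relative of the binding proteins, was lower in untreated EpiSCs (0.522 FPKM) than in ESCs with BMP-4 (2.50 FPKM). Among proteases and their inhibitors, Htra1, a secreted protease that can cleave binding proteins, was lower in untreated EpiSCs at 0.872 FPKM, against 7.68 and 8.78 FPKM in ESCs with BMP-4 and with serum. Stc2, an inhibitor of PAPP-A, was higher in untreated EpiSCs, at 5.16 FPKM, against 1.30 and 1.58 FPKM in those ESCs. The deposited intervals overlapped in each of these comparisons of Igfbpl1, Htra1 and Stc2.

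Of the receptor adaptors 12 of 16 were compared. Against ESCs with serum 1 was higher in EpiSCs, Dok1, and 2 were lower, Gab1 and Socs3, both with deposited intervals apart, beside the same 11.6% and 9.55% of all genes. Gab1, a docking protein for PI3-kinase and Shp2, stood at 23.1 FPKM in untreated EpiSCs, 54.2 FPKM in ESCs with BMP-4 and 92.5 FPKM in ESCs with serum. Socs3, an inhibitor of cytokine and insulin receptors that LIF induces, stood at 2.32, 26.1 and 23.0 FPKM in these libraries. Grb10, an imprinted inhibitor of the IGF1 and insulin receptors, stood at 66.9 FPKM (37.1 to 96.6) in untreated EpiSCs, 12.0 (4.65 to 19.4) in ESCs with BMP-4 and 46.3 (24.2 to 68.5) in ESCs with serum. It was the adaptor that was lower between the ESC media, with intervals apart.

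All 25 genes of the PI3K, AKT and mTOR list were compared, and in untreated EpiSCs 2 were higher, against ESCs with serum, with 0 lower, beside 11.6% of all genes higher and 9.55% lower. These were Akt1, with 58.3 against 22.2 FPKM, and Pik3r3, a regulatory subunit of PI3-kinase, with 6.72 against 0.996 FPKM. Akt2 lay within 2-fold, with 18.2 and 23.0 FPKM. The list's median log2 difference was 0.05, and the deposited intervals of Akt1 and of Pik3r3 overlapped between these libraries. Against ESCs with BMP-4 3 genes of the list were higher, these 2 and Inppl1, and 1 was lower, Pik3cd, all with overlapping intervals, beside 11.0% of all genes higher and 10.0% lower.

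Of the other glypicans Gpc1 was higher in EpiSCs. It stood at 15.4, 18.1 and 16.4 FPKM in untreated, 1.5 h and 24 h EpiSCs and at 3.40 and 3.67 FPKM in ESCs with BMP-4 and with serum. Notum, an enzyme that can release glypicans and that removes the lipid of Wnt proteins, was lower in untreated EpiSCs, at 0.363 FPKM, against 6.85 FPKM in ESCs with BMP-4 and 6.47 FPKM in ESCs with serum. For Gpc1 and Notum the deposited intervals of untreated EpiSCs overlapped those of both ESC libraries. Gpc2 lay within 2-fold in each comparison, and Gpc5 and Gpc6 had means under 1 FPKM.

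**Figure D5:**
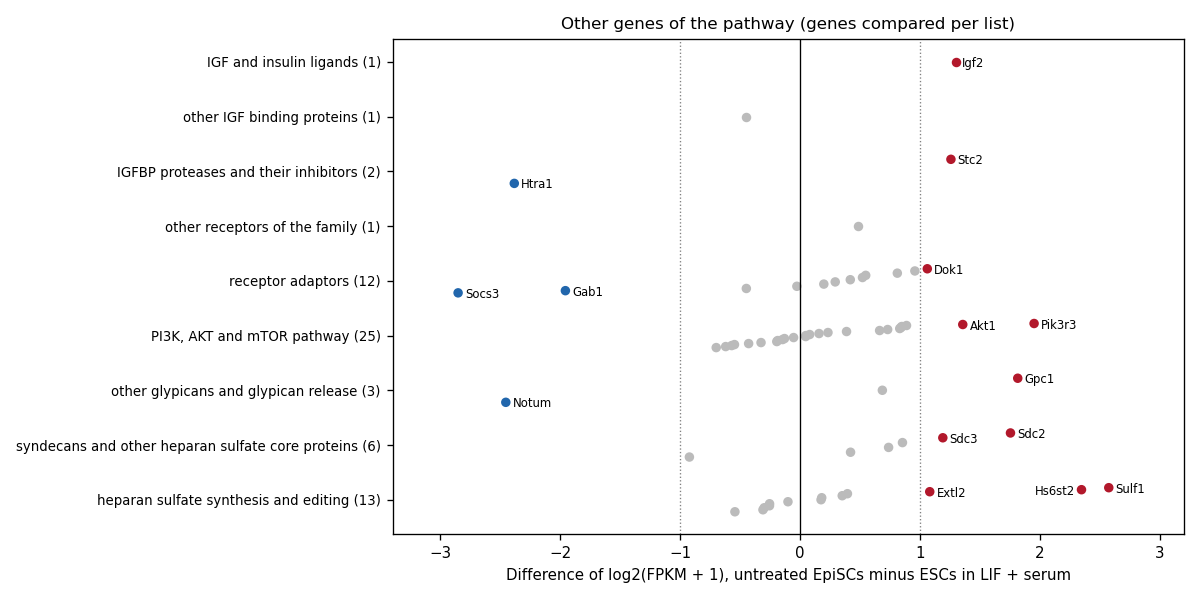
Difference of log2(FPKM + 1), untreated EpiSCs minus ESCs in LIF and serum (horizontal axis), for the 64 other genes of the pathway compared, by list. Named red points are at least 2-fold higher and blue points at least 2-fold lower in EpiSCs, 11 and 4 genes, and dotted lines mark 2-fold.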

How the data were processed

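Fragmented poly(A) RNA of 5 samples was sequenced from strand-specific libraries built with a kit for small RNA, per the labels' protocols. The authors deposited 1 table of FPKM per gene with confidence bounds, made with TopHat and Cufflinks on mm9, per the submitters' processing notes (Picard and SAMtools are listed too). The sources used here give no annotation, strand setting or scaling between libraries. Members and lists were chosen with earlier results of these data known, and 1 gene of the lists is not reported here. All 10 members had status OK in all libraries. Differences are of log2(FPKM + 1), over genes averaging 1 FPKM or more and with status OK in the libraries compared, which understates changes of low genes. Named genes are the members, up to 4 higher and 4 lower genes per list and comparison, the ligands, and for likeness the 3 nearest genes. With 1 library per group no test was made.

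Whole reads were recovered with the most frequent ratio of values under 0.5 FPKM between libraries, accepting a gene within 0.01 of whole numbers in all libraries. Of 1077 genes tried, 729 (67.7%) passed. For library totals, 63 genes with 1 transcript in GENCODE M21 were used. The smallest matching whole numbers were taken, and the transcript length they imply was farthest from the annotated one for Irs2, 4215 against 6323 bases. The calling and the read recovery were tested on simulated data. mm9 positions are written from 1, since the file counts starts from 0. Loci with another entry inside were Irs2 and Gpc3, those entries standing at or under 0.226 FPKM. Promoters are RefSeq's on GRCm38.p6. Python 3.11.15, pandas 2.3.3, numpy 2.4.6 and SciPy 1.17.1 were used.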

Additional observations from a re-analysis of the deposited data

How the results depend on the processing

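No paired analysis was possible because there was a single library per group, and no library could be left out of a comparison. Of 36 counts of members under other settings, 32 lay within 1.5 times the reported count. Among EpiSC libraries the reported count was 0, which a stricter setting can only leave at 0. The 4 counts that moved were all of untreated EpiSCs against ESCs. With a mean of at least 5 FPKM, 4 members were compared, and untreated EpiSCs had 3 higher against ESCs with serum and 1 against ESCs with BMP-4, since fewer genes entered. When deposited intervals also had to be apart, these counts were 2 and 1. With a pseudocount of 0.1 or 0.5, Insr joined the genes higher against ESCs with serum, making 6. Of the log2 differences of members under other settings, 199 moved by less than the deposited error and 5 by more. The 5 were those of Igfbp5 and Irs1 at a pseudocount of 0.1, for example 2.86 for Irs1 against ESCs with serum, where 0.96 was the value with 1.

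Scaling by the median of ratios moved the median of all genes by at most 0.03 on the log2 scale and changed the sign of 1 of 60 differences, that of Gpc4 between the ESC media. Over all genes, a pseudocount of 0.1 gave 880 genes 2-fold apart between the ESC media (428 reported), 128 at 1.5 h (46), 296 at 24 h (130) and 238 between the times (114). With a mean of at least 5 FPKM these were 242, 30, 67 and 67, and 1323 and 1299 for untreated EpiSCs against ESCs with serum and with BMP-4 (2323 and 2313 reported).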

Other observations

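Heparan sulfate, the sugar chain that glypicans carry, is made and edited by a further list of 20 genes, of which 13 averaged 1 FPKM or more. In untreated EpiSCs 3 of the 13 were higher than in ESCs with serum and 0 lower, beside 11.6% of all genes higher and 9.55% lower. The median log2 difference was 0.17 over the 13 and -0.01 over all genes. Sulf1, an extracellular enzyme that removes 6-O-sulfate groups, stood at 38.1 FPKM (18.5 to 57.8), 36.8 (18.0 to 55.5) and 36.0 (17.8 to 54.1) in untreated, 1.5 h and 24 h EpiSCs, at 13.0 (4.75 to 21.2) in ESCs with BMP-4 and at 5.57 (1.38 to 9.76) in ESCs with serum. Hs6st2, which adds such groups, stood at 4.76, 4.10 and 3.72 FPKM in EpiSCs and at 0.0252 and 0.132 FPKM in ESCs with BMP-4 and with serum. The more abundant enzymes of both kinds lay within 2-fold. Sulf2 stood at 61.2 FPKM in untreated EpiSCs, 46.5 FPKM in ESCs with BMP-4 and 65.8 FPKM in ESCs with serum, and Hs6st1 at 6.98, 11.0 and 8.53 FPKM in these libraries. Extl2 was the third gene, with 7.29 FPKM in untreated EpiSCs and 2.92 FPKM in ESCs with serum. Of the core proteins other than glypicans, Sdc2 and Sdc3 were higher in untreated EpiSCs, Sdc2 at 5.20 FPKM against 0.839 FPKM in ESCs with serum. The deposited intervals of Extl2, Sdc2 and Sdc3 overlapped between these libraries.

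Genes with the most similar pattern were sought by the largest gap between centred log2(FPKM + 1) profiles over the 5 libraries, among genes averaging 5 FPKM or more, with the correlation given as a description over 5 points that share their libraries. For Igfbp2 they were Mvk (gap 0.26, r 0.97), Ndrg1 (gap 0.27, r 0.96) and Insig1 (gap 0.29, r 0.96). For Igfbp3 they were Krt18 (gap 0.26, r 1.00), Dclk1 (gap 0.35, r 0.99) and Wnt8a (gap 0.38, r 1.00). Gpc3 had no close match, its nearest genes being Nlrp9b, Camkv and Pfkl at gaps of 0.48, 0.48 and 0.51. For Irs2 they were Ptprs, Rfxap and Flywch1 at gaps of 0.05 to 0.09, and for Irs1, whose level under 1 FPKM in ESCs flattens the profile, Rere, Flot2 and Arid2. For Igfbp4 they were Abcg2, Akt1 and Palm, and for Insr Ptms, Rcn2 and Rab13.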
